A study of Homo sapiens with 3 samples.

Results

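The genes described here are 41 markers and regulators of intestinal differentiation: 15 of absorptive enterocytes, 11 of secretory cells and mucus, 7 transcription factors and 8 surface or other epithelial genes. They were taken by symbol, with every probe set that the array annotation assigns to exactly 1 of them and with no filter on expression. Of the 41, 40 were analysed, with 77 probe sets among them, out of 19775 genes on the array, and 1 transcription factor is not reported here. RNA came from HCT116, an established human colorectal carcinoma cell line, on 3 Affymetrix arrays. The control cells carried a scrambled shRNA, and the other cells carried UHRF1 shRNA-2 or UHRF1 shRNA-5 (hairpin 2 and hairpin 5 below), with 1 array for each of the 3. All cells were infected with lentivirus and kept in puromycin for 6 days, so every array, the control included, comes from infected and selected cells. UHRF1 reads hemimethylated DNA and histone H3 and is needed to maintain DNA methylation, and the design asked which transcripts follow its loss.

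The colon lining renews itself from crypt stem cells whose progeny become absorptive enterocytes or secretory cells such as goblet cells. The homeobox factors CDX1 and CDX2 set intestinal identity, while ATOH1, and after it SPDEF and GFI1, direct the secretory branch. Enterocytes carry brush border enzymes, ion exchangers and water channels, and goblet cells make mucins and trefoil peptides. Colorectal carcinoma lines keep these programmes to very different degrees, and several of their genes are known to be silenced by promoter methylation in tumours.

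UHRF1 mRNA itself read 8.54 in the scrambled control, 6.20 under hairpin 2 and 6.67 under hairpin 5 (log2 values). Of 9 epithelial marker genes with a probe set, 9 lay above the 60th percentile of all genes, KRT8, KRT18 and CDH1 among them. Of 10 leukocyte markers, 1 reached the 40th percentile, and the highest control reading among them was 3.18. Counting neuronal, endothelial and fibroblast markers with these, 0 of 30 were 2-fold from the control on either array. Of all genes, 1.09% were with hairpin 2 and 1.32% with hairpin 5. A few of the 30 markers read well above background, among them COL1A1 (5.82 in the control) and the tubulin TUBB3 (9.29). TUBB3 was 1.90-fold higher than the control with hairpin 2 and 1.71-fold higher with hairpin 5. Interferon-stimulated genes differed between the hairpin arrays. At least 2-fold above the control were 12 of 16 with hairpin 2 (0.728% of all genes) and 2 of 16 with hairpin 5 (0.152%). The array medians lay between 2.98 and 3.04, and the number of arrays limits the precision. In a bulk RNA sample, fewer cells of a type and less RNA per cell cannot be told apart.

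Values are log2 RMA values of a gene's brightest probe set, and differences are hairpin minus control on that scale, where 1 is 2-fold. Probe sets differ in how strongly they bind, so a value places a gene only roughly. A mean over the arrays under 3.28, the 40th percentile of all genes, was taken as close to background, and 4.81 is the 60th percentile.

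The promoters of 4 genes are shown because these genes differ from the control and their content of CpG, the substrate of maintenance methylation, ranges from none to more than most of the other members. The first 3 lay at least 2-fold from the control on a hairpin array, and SLC26A2 was the absorptive gene furthest below it. Each window runs from 250 bases before to 50 bases after the start site of transcription, 5′ to 3′ on the gene's strand, from RefSeq (GRCh38.p14), with each CG dinucleotide in capitals. AQP3 is on the minus strand at chr9:33447544-33447843, ANXA10 on the plus strand at chr4:168092287-168092586, GATA6 on the plus strand at chr18:22169339-22169638 and SLC26A2 on the plus strand at chr5:149960508-149960807.
AQP3: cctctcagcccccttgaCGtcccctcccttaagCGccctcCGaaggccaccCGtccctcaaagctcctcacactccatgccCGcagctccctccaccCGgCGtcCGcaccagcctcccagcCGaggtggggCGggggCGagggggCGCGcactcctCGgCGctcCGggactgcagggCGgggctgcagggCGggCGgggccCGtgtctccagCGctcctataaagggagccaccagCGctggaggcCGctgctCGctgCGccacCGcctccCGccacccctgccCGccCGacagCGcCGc
ANXA10: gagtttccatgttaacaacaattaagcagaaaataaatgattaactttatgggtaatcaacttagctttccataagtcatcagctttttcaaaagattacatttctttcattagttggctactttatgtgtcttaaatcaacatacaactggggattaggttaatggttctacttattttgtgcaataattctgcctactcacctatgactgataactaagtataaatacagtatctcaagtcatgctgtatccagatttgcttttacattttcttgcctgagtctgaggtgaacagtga
GATA6: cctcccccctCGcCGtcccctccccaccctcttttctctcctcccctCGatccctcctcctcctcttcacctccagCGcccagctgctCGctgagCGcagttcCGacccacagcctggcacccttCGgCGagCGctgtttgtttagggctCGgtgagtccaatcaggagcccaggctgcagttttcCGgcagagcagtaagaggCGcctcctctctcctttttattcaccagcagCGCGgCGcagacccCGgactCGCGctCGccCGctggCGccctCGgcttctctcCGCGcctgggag
SLC26A2: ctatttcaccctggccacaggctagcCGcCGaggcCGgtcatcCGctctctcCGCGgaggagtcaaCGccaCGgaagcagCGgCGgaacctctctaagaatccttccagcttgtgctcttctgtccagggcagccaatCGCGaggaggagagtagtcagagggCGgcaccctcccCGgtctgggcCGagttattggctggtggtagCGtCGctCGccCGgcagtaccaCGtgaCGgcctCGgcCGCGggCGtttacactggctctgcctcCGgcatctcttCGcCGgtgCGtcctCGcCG
The AQP3 window holds 31 CG dinucleotides, that of SLC26A2 31 and that of GATA6 25, whereas the ANXA10 window holds 0. Methylation was not measured on these arrays.

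By their mean over the arrays, 20 of 40 genes lay under the 40th percentile, 13 between the 40th and 60th, and 7 above. On all 3 arrays, 17 of 40 read under that level. The 7 were AQP3, CA2, SLC26A2, MUC1, SPDEF, EPCAM and ANXA10. Of the 20 genes that reached the 40th percentile, 3 had a control value under it: GATA6, CEACAM1 and CA4.

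**Figure D1:**
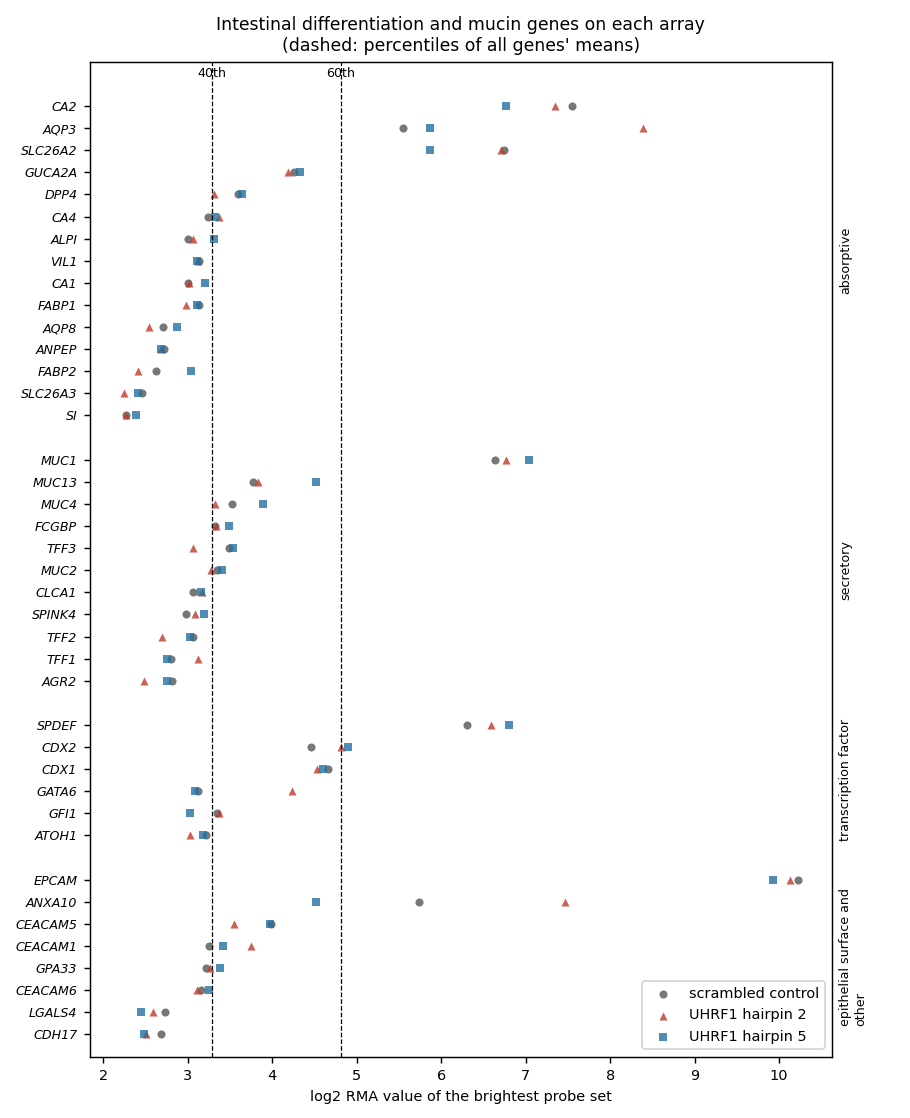
Log2 RMA value (x axis) of the brightest probe set of each of the 40 genes (y axis, by class and by mean) on the control, hairpin 2 and hairpin 5 arrays, 1 point per array. Dashed lines mark the 40th and 60th percentiles of all gene means, 3.28 and 4.81. AQP3 with hairpin 2 (8.39) and ANXA10 on all 3 arrays (5.74, 7.47 and 4.52) are the widest separations.

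Against the control, 3 of 40 genes were at least 2-fold higher with hairpin 2 (AQP3, ANXA10 and GATA6) and 0 were 2-fold lower. Among all 19775 genes, 0.728% were 2-fold higher and 0.364% lower with that hairpin, and the 3 genes are 7.50% of the 40. With hairpin 5, 0 of 40 were 2-fold higher and 1 was lower, ANXA10, or 2.50% of the 40, against 0.152% and 1.17% of all genes. The median difference over the 40 genes was −0.03 with hairpin 2 and 0.06 with hairpin 5, beside 0.00 and 0.00 over all genes. Both hairpins are set against the same control array. With 1 array per hairpin these counts carry no test. Members were chosen with earlier results of these data known, so their shares beside all genes, here and below, are a description. In limma, with the hairpins as 2 samples against 1 control, 0 of 40 genes passed (lowest adjusted p over all genes 1.00), and 0 of 40 had an unadjusted p under 0.05. Of all genes, 0.0% passed and 2.7% had an unadjusted p under 0.05. The limma p rests on the spread between the 2 hairpin arrays, moderated toward a value shared by all genes. It takes the lone control to vary as the hairpin arrays do. UHRF1, the target of both hairpins, did not pass either, so members that did not pass cannot be read as unchanged.

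**Figure D2:**
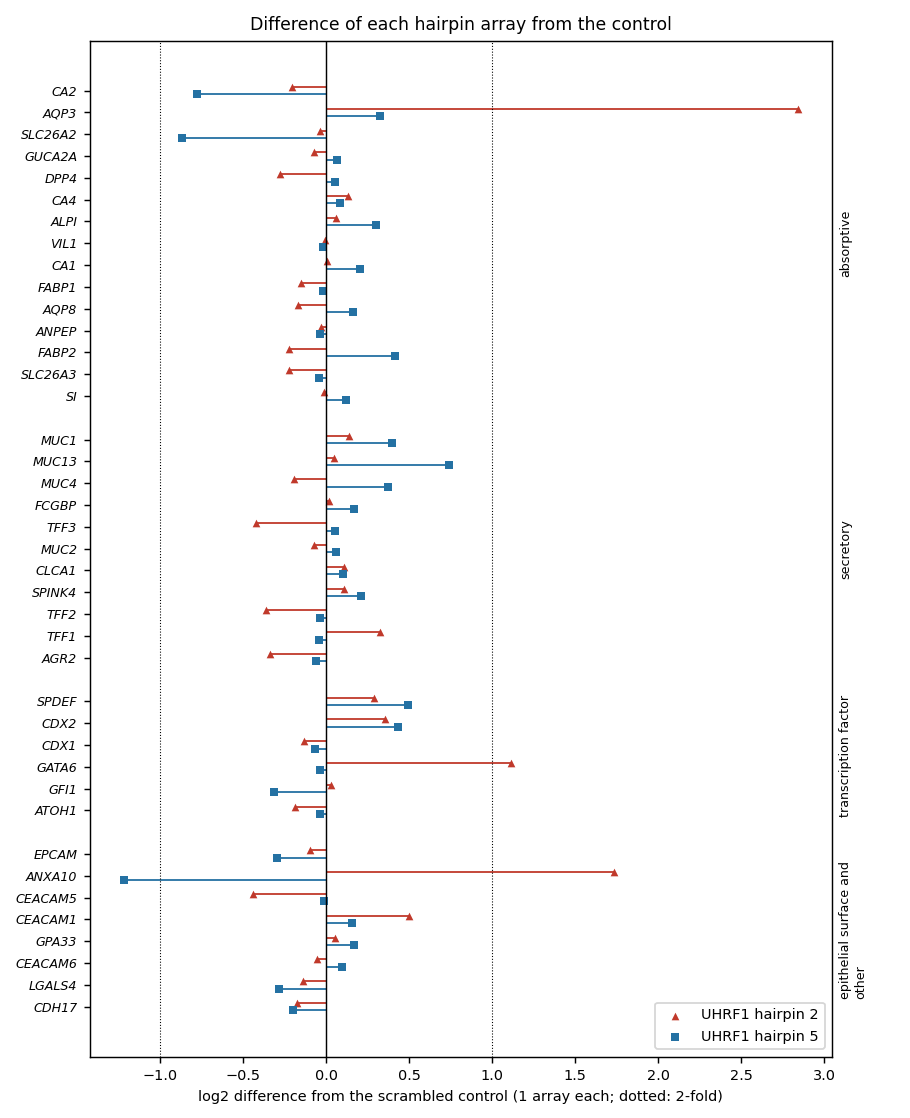
Log2 difference of hairpin 2 (triangles) and hairpin 5 (squares) from the scrambled control, 1 array each, for each gene, with lines from 0 and dotted lines at 2-fold. AQP3 (2.84), ANXA10 (1.73) and GATA6 (1.11) pass 2-fold with hairpin 2, and ANXA10 (−1.22) does with hairpin 5.

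**Figure D3:**
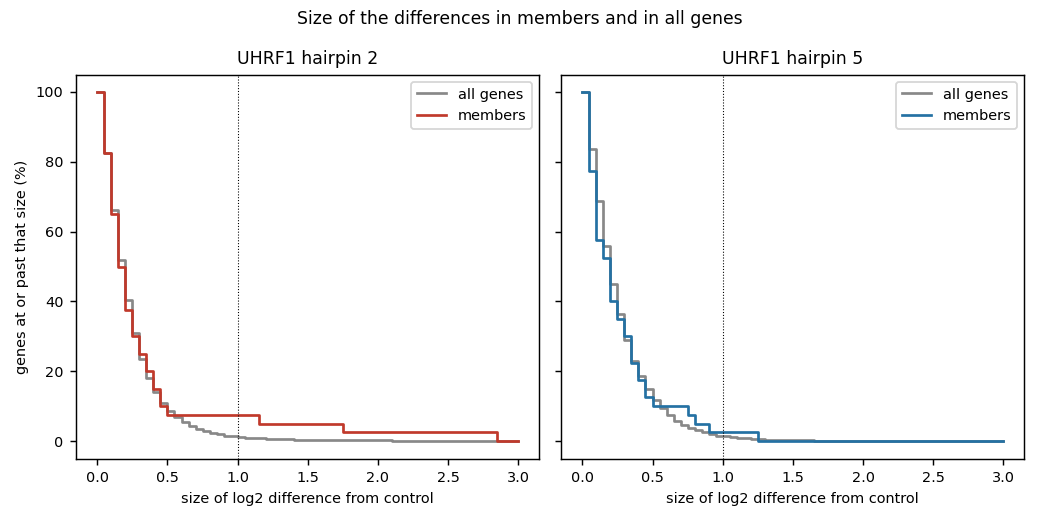
Percentage of genes (y axis) whose log2 difference from the control is at or past a given size (x axis, without sign), for the 40 members and for all 19775 genes, 1 panel per hairpin. At 2-fold (dotted) the hairpin 2 panel stands at 7.50% of members and 1.09% of all genes. The hairpin 5 panel stands at 2.50% and 1.32%. Members were chosen with earlier results of these data known.

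Among absorptive genes AQP3, a channel for water and glycerol in the basolateral membrane of colonic epithelium, stood furthest above the control. Its brightest probe set (39248_at) read 5.55 in the scrambled control, 8.39 under hairpin 2 and 5.87 under hairpin 5. On this probe set the hairpin 2 value is the high one, and hairpin 5 lies close to the control. The hairpin 2 value is 7.18-fold and the hairpin 5 value 1.25-fold over the control, with a mean difference of 1.58 ± 1.78 (SD, n = 2 hairpins). The other probe sets of AQP3 gave the same order, with smaller differences for hairpin 2 but not for hairpin 5. Probe set 39249_at read 4.49 in the scrambled control, 5.58 under hairpin 2 and 4.88 under hairpin 5. Probe set 203747_at read 4.71, 5.40 and 5.19 on the same arrays, with hairpin 5 nearer to hairpin 2 than to the control. As the mean over its 3 probe sets AQP3 was 1.54 higher with hairpin 2 and 0.40 higher with hairpin 5.

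SLC26A2, a sulfate transporter that supplies the sulfate carried by mucins and proteoglycans, was lowest with hairpin 5. It read 6.74 in the scrambled control, 6.70 under hairpin 2 and 5.87 under hairpin 5, a difference of −0.87, or 1.83-fold lower, on the last. The control and hairpin 2 nearly coincide. Over both hairpins the mean difference was −0.46 ± 0.59 (SD, n = 2 hairpins), and the mean over its 3 probe sets was 0.20 higher with hairpin 2 and stood at −0.37 with hairpin 5.

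CA2, a cytosolic carbonic anhydrase of absorptive cells, followed the same order on its only probe set. It read 7.55 in the scrambled control, 7.34 under hairpin 2 and 6.77 under hairpin 5. The hairpin 5 array is the low one, 1.72-fold under the control, and the mean difference was −0.49 ± 0.41 (SD, n = 2 hairpins). At a threshold of 1.5-fold, CA2, SLC26A2 and ANXA10 were the 3 of 40 genes lower with hairpin 5, where 6.04% of all genes were.

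The other 12 absorptive genes were within 1.5-fold of the control on both hairpin arrays. Their differences ran from −0.28 (DPP4) to 0.13 (CA4) with hairpin 2 and from −0.04 (SLC26A3) to 0.41 (FABP2) with hairpin 5. Several brush border genes among them were close to background on every array. The actin bundler VIL1 read 3.13 in the scrambled control, 3.12 under hairpin 2 and 3.11 under hairpin 5. The disaccharidase SI read 2.27, 2.26 and 2.39 on these arrays. The chloride and bicarbonate exchanger SLC26A3 read 2.46, 2.24 and 2.42. These readings lie under the 40th percentile on every array. So did those of the aminopeptidase ANPEP, the fatty acid binding proteins FABP1 and FABP2, the carbonic anhydrase CA1 and the water channel AQP8. The intestinal phosphatase ALPI was 0.06 and 0.30 higher, and passed that level only with hairpin 5, at 3.31. GUCA2A, the hormone guanylin, read 4.26, 4.19 and 4.32, and the peptidase DPP4 read 3.59, 3.31 and 3.65. CA4, a membrane-anchored carbonic anhydrase, read 3.24, 3.37 and 3.32.

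In the secretory class no gene reached 2-fold on either array, and the median difference of the 11 genes was 0.02 with hairpin 2 and 0.10 with hairpin 5. MUC13, a transmembrane mucin of the intestinal surface, had the largest difference. It read 3.78 in the scrambled control, 3.83 under hairpin 2 and 4.51 under hairpin 5, where it was 1.67-fold higher. Hairpin 5 stands apart and hairpin 2 lies on the control, with a mean difference of 0.39 ± 0.49 (SD, n = 2 hairpins). Its other probe set (222712_s_at) read 2.50, 2.61 and 2.50, close to background on all arrays, and the mean over both was 0.08 and 0.37 higher. With hairpin 2, the same 3 genes were 1.5-fold higher as 2-fold higher, where 3.76% of all genes were, and 0 were 1.5-fold lower, where 2.03% were. MUC13 was the 1 member of 40 at least 1.5-fold higher with hairpin 5, against 1.93% of all genes.

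MUC1, another transmembrane mucin, read 6.64 in the scrambled control, 6.77 under hairpin 2 and 7.03 under hairpin 5. All 3 values lie within 1.5-fold of each other, and the mean difference was 0.27 ± 0.19 (SD, n = 2 hairpins). The remaining probe sets of MUC1 (207847_s_at and 211695_x_at) read 3.23 and 2.94 in the control. As the mean over its probe sets, MUC1 differed by 0.10 with hairpin 2 and −0.03 with hairpin 5.

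Of the 11 secretory genes, 5 had means under the 40th percentile, 5 lay between it and the 60th, and MUC1 lay above. MUC2, the main gel-forming mucin of the intestine, read 3.34 in the scrambled control, 3.27 under hairpin 2 and 3.40 under hairpin 5. TFF3, a trefoil peptide secreted with it, read 3.49, 3.06 and 3.54, with hairpin 2 the low array. AGR2, an endoplasmic reticulum protein needed to fold mucins, read 2.82, 2.48 and 2.76. The gastric type trefoils TFF1 and TFF2 differed by 0.32 and −0.36 with hairpin 2 and by −0.04 and −0.04 with hairpin 5. FCGBP, a mucus protein, read 3.32, 3.34 and 3.48. CLCA1, a goblet cell metalloprotease, differed by 0.11 and 0.10, and SPINK4, a protease inhibitor family member of goblet cells, by 0.11 and 0.21. MUC4, a transmembrane mucin with 6 probe sets, differed by −0.20 with hairpin 2 and 0.37 with hairpin 5 on its brightest probe set, whose name ends in _x_at. Its probe sets disagree with hairpin 2, where 217109_at was 0.63 higher and 217110_s_at 0.48 higher, and the mean over all 6 was 0.09 higher with hairpin 2 and 0.05 higher with hairpin 5.

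Of the transcription factors, GATA6, a zinc finger factor of gut endoderm, stood furthest from the control. It read 3.12 in the scrambled control, 4.23 under hairpin 2 and 3.08 under hairpin 5. Only the hairpin 2 value lies above the 40th percentile, 2.16-fold above a control value close to background, which makes the fold uncertain. The second probe set (229282_at) read 2.94, 2.91 and 2.79 and did not repeat the difference. Averaged over both, GATA6 was 0.54 higher with hairpin 2 and at −0.09 with hairpin 5. The mean difference on the brighter probe set was 0.54 ± 0.81 (SD, n = 2 hairpins).

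CDX2 read 4.46 in the scrambled control, 4.81 under hairpin 2 and 4.89 under hairpin 5. The hairpin arrays lie close together and above the control, with a mean difference of 0.39 ± 0.06 (SD, n = 2 hairpins). Its second probe set (231606_at) read 2.84, 2.70 and 2.58, and the mean over both probe sets was 0.10 and 0.08 higher. CDX1, its paralog, read 4.66, 4.53 and 4.60.

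SPDEF, an ETS factor of goblet cell maturation, read 6.31 in the scrambled control, 6.59 under hairpin 2 and 6.80 under hairpin 5, which averages to a difference of 0.39 ± 0.15 (SD, n = 2 hairpins). All 5 of its probe sets carry names ending in _x_at, which marks probes that may bind other transcripts. The 4 dimmer probe sets differed by −0.05 to −0.26 with hairpin 2 and by 0.11 to 0.27 with hairpin 5, and the mean over all 5 stood at −0.07 and 0.25. ATOH1, the switch to the secretory lineage, read 3.21, 3.02 and 3.18, and GFI1, a repressor acting after it, read 3.34, 3.37 and 3.02. Neither was clear of background.

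**Figure D4:**
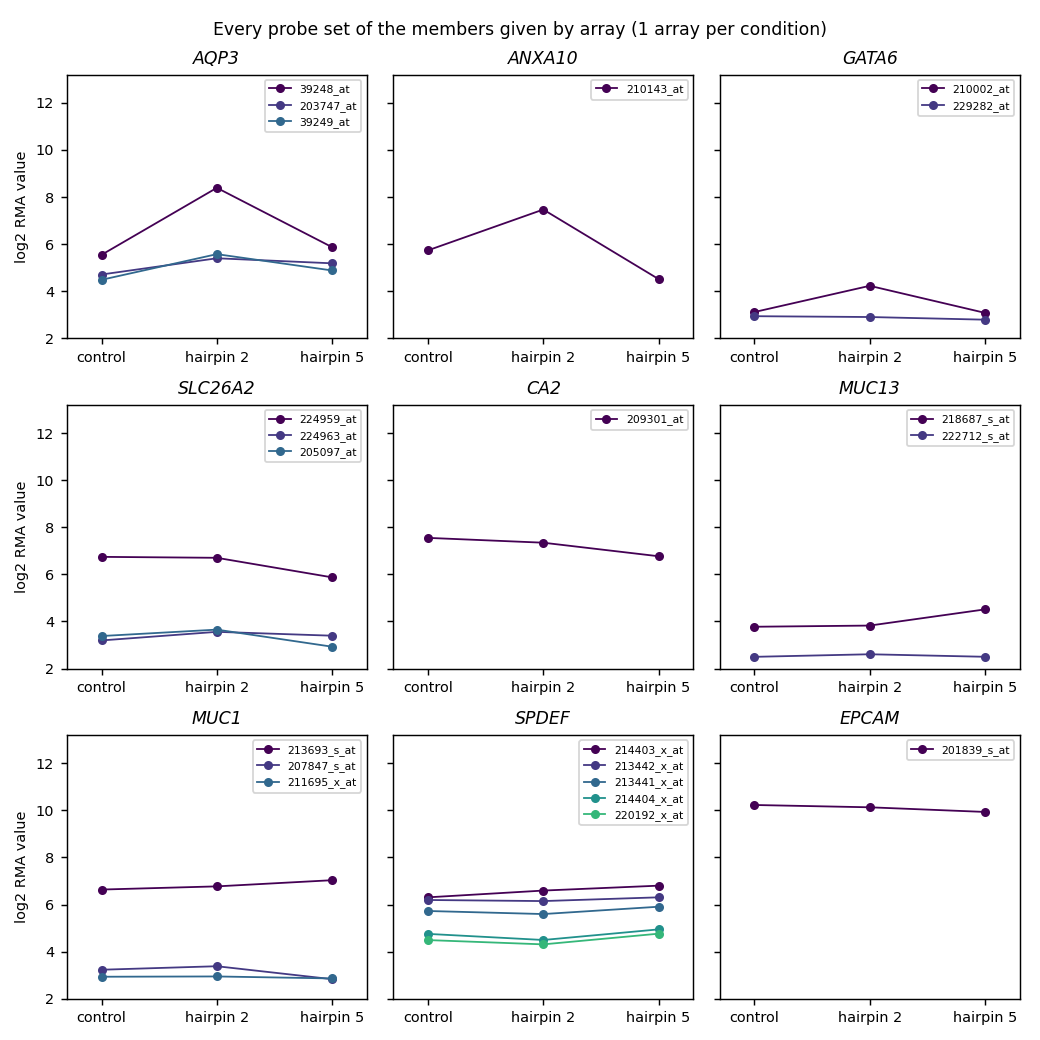
Log2 RMA value (y axis) of every probe set of 9 genes on the control, hairpin 2 and hairpin 5 arrays, 1 panel per gene and 1 line per probe set, with lines only to join the readings of a probe set. The 3 probe sets of AQP3 are all highest with hairpin 2 (8.39, 5.40 and 5.58), while the difference in GATA6 appears on 1 of its 2 probe sets.

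ANXA10, a calcium-dependent phospholipid-binding annexin made by gastric epithelium and by serrated lesions of the colon, differed in opposite directions on the hairpin arrays. Its only probe set (210143_at) read 5.74 in the scrambled control, 7.47 under hairpin 2 and 4.52 under hairpin 5. The control lies between the hairpins, 3.32-fold under hairpin 2 and 2.33-fold over hairpin 5. Between the hairpins the difference was 2.95, and the mean difference from the control was 0.26 ± 2.09 (SD, n = 2 hairpins).

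EPCAM, the pan-epithelial adhesion molecule, read 10.23 in the scrambled control, 10.13 under hairpin 2 and 9.93 under hairpin 5. Averaged over the hairpins the difference was −0.20 ± 0.14 (SD, n = 2 hairpins). The intestinal surface genes CDH17, a cadherin, and GPA33, the A33 antigen, differed by −0.18 and 0.06 with hairpin 2 and by −0.20 and 0.17 with hairpin 5, and LGALS4, a galectin of the gut, by −0.14 and −0.28. All 3 had means under the 40th percentile.

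The carcinoembryonic antigen family was also low. CEACAM1, an adhesion receptor, read 3.26 in the scrambled control, 3.75 under hairpin 2 and 3.41 under hairpin 5 on its brightest probe set. Averaged over its 5 probe sets it differed by 0.12 and 0.05. CEACAM5, the antigen measured in colorectal cancer follow-up, read 3.98, 3.54 and 3.97 on 217291_at and 2.35, 2.46 and 2.35 on 201884_at. CEACAM6 read 3.16, 3.10 and 3.26. These paralogs are similar in sequence, so their probe sets may share transcripts.

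Between the hairpins, 3 of 40 genes were at least 2-fold apart, all higher with hairpin 2: ANXA10 (2.95), AQP3 (2.52) and GATA6 (1.15). With probe sets averaged by gene the count was 2, as AQP3 fell to 1.14 and GATA6 to 0.63. Of all genes, 1.84% were at least 2-fold higher with hairpin 2 than with hairpin 5 and 0.121% lower. At 1.5-fold, 6 of 40 were apart in either direction, where 9.38% of all genes were. The interferon-stimulated genes stood higher on the same array, where their median difference was 2.71, against 0.17 with hairpin 5, and their part in these 3 differences was not tested. The core of the interferon-stimulated response element, GAAANNGAAA on either strand, was in 1 of the 30 member promoters for which a window was at hand, that of CEACAM1 (3.33%, and 3.65% of 27305 genes). The AQP3, ANXA10 and GATA6 windows did not hold these letters, and whether such an element acts on any of these genes was not tested.

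The windows of these 30 genes, taken as 1 per gene, held a median of 7 CG dinucleotides, against 14 over all genes, with a range from 0 (ANXA10, SI and GPA33) to 34 (DPP4). Genes under the 40th percentile had a median of 6 (n = 15), those between the 40th and 60th a median of 8 (n = 10), and those above a median of 13 (n = 5, from 0 to 31). CG content was spread widely within each of these groups, and SI and ANXA10, with 0 each, read close to background and above the 60th percentile respectively. The core bound by CDX factors, TTTAT on either strand, was in 16 of 30 windows (53.3%, and 35.8% of all genes). It overlaps the TATA box sequence TATAAA, which was in 6 of 30 (20%, and 12.0%). Outside a TATAAA the CDX core was in 12 of 30 (40%, and 30.5%), 3 times in ANXA10, 4 times in SI and 0 times in AQP3. The core bound by GATA factors, GATAA on either strand, was in 12 of 30 (40%, and 23.2%), ANXA10, SI, FABP1 and MUC2 among them. Such matches are letters in a window and were not tested as sites. CA1, CA2, CA4, CDH17, CDX1, EPCAM, TFF1, TFF2, TFF3 and VIL1 had no window.

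Other intestinal genes, from companion lists of regulators, secretory and absorptive genes, are given for comparison. Of all genes, 0.728% were 2-fold higher and 0.364% lower with hairpin 2, and 0.152% and 1.17% with hairpin 5. In lists this short, counts past 2-fold are a description. Of 24 regulators, 0 were 2-fold from the control with hairpin 2, and with hairpin 5 there was 1 higher and 1 lower. SOX4, an SRY-related factor of progenitor cells, read 7.92 in the scrambled control, 8.85 under hairpin 2 and 9.62 under hairpin 5. KLF4, a factor of goblet cell differentiation, read 7.41, 6.63 and 5.68. SOX4 is highest and KLF4 lowest with hairpin 5, and hairpin 2 lies between it and the control for both. KLF5, a factor of proliferating crypt cells, read 7.30, 6.90 and 6.48, but its second probe set (209212_s_at) read 5.67, 6.21 and 6.09, the other way. ELF3, an epithelial ETS factor, was 0.36 higher with hairpin 2 and 0.63 higher with hairpin 5. As means over their probe sets, with hairpin 2 first, SOX4 stood at 0.29 and 0.72, KLF4 at −0.46 and −1.01 and ELF3 at 0.15 and 0.36.

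Of 27 secretory companions, 1 was 2-fold lower with hairpin 2 (0.364% of all genes) and 2 with hairpin 5 (1.17%). With either hairpin, 0 were 2-fold higher (0.728% and 0.152% of all genes). The 2 lower genes, GALNT12 and C1GALT1, encode enzymes that build the O-linked sugar chains of mucins. GALNT12, which attaches the first sugar, read 7.14 in the scrambled control, 6.20 under hairpin 2 and 5.90 under hairpin 5. C1GALT1, which extends it to the core 1 structure, read 5.02, 3.97 and 3.81. Both hairpin arrays lie below the control for both genes. The second GALNT12 probe set (222773_s_at) differed by −0.71 and −0.73. For C1GALT1 the other probe sets differed by −0.12 and −0.41 (219439_at) and by −0.15 and −0.11 (226105_at). MUC5AC, a gastric gel-forming mucin, was 0.25 and 0.67 higher, while its 4 probe sets averaged 0.04 and 0.27. KLK1, a kallikrein with 1 probe set, was 0.20 and 0.22 higher.

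Of 33 absorptive companions, 1 was 2-fold higher with hairpin 2 (0.728% of all genes) and 0 were lower (0.364%). With hairpin 5, 0 were 2-fold higher (0.152%) or lower (1.17%). The gene higher with hairpin 2 is KRT20, the keratin of differentiated colonic surface cells, named after its values were seen. It read 2.77 in the scrambled control, 5.62 under hairpin 2 and 2.64 under hairpin 5, so that hairpin 2 alone is clear of background. The cytoskeletal linker EZR differed by −0.34 and −0.30 on its brightest probe set, but the mean over its 5 probe sets was 0.25 and 0.24 higher. The carbonic anhydrase CA12 differed by −0.10 and −0.46, while its 7 probe sets averaged 0.06 and −0.19. The creatine kinase CKB, with 1 probe set, differed by −0.12 and −0.34, and the actin bundler ESPN by 0.28 and 0.13, while its 3 probe sets averaged 0.03 and 0.07. None of the companion genes passed limma (0 of 84 by adjusted p).

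**Figure D5:**
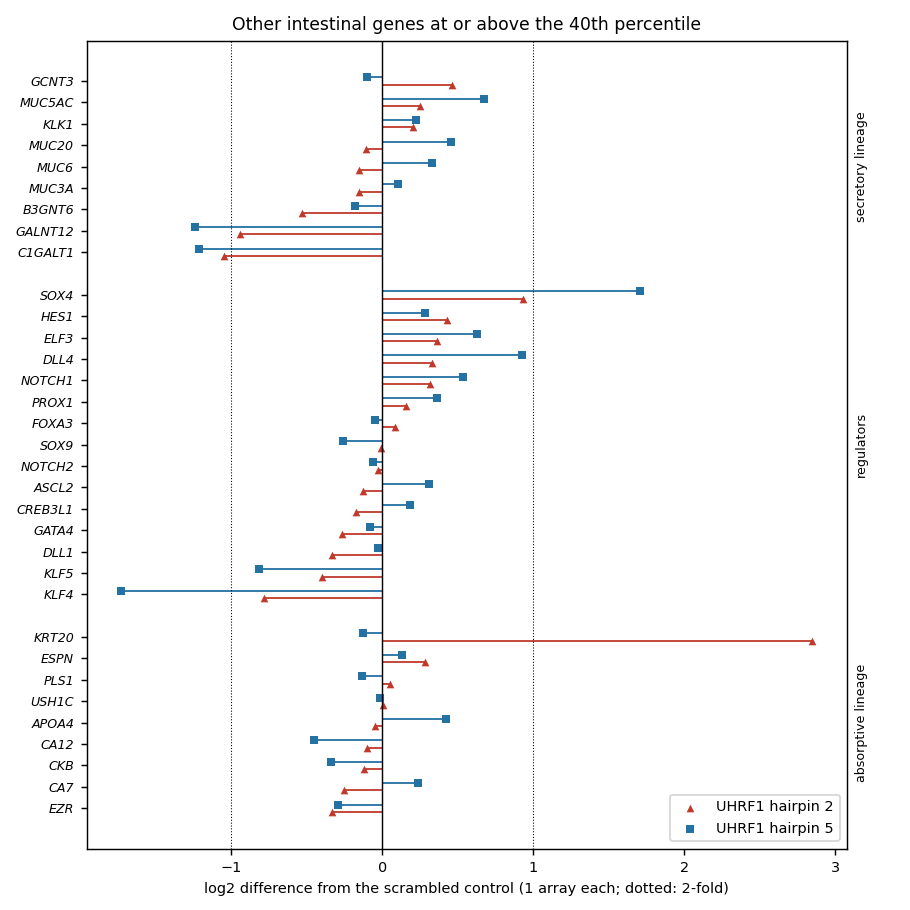
Log2 difference from the control (x axis) with hairpin 2 (triangles) and hairpin 5 (squares), 1 array each, for the 33 companion genes whose mean reached the 40th percentile, by list. KRT20 lies at 2.85 with hairpin 2 and −0.13 with hairpin 5, and GALNT12 and C1GALT1 lie left of 0 with both.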

How the data were processed

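The deposited table holds log2 values for 54613 probe sets. The authors used Affymetrix Expression Console with RMA, as the submitters' processing notes name them and per the labels. Versions and settings are not given in the sources used here, the log base was taken from the range of values (1.95 to 14.06 in the control), and centring is unknown. There are no detection calls. RMA, as usually run, makes the arrays' distributions alike, so a shift of most genes would not show.

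Of the probe sets, 41091 had 1 gene symbol, 1801 several and 11721 none. A RefSeq table (GRCh38.p14) matched 41037 by gene identifier and changed 0 symbols. For each gene the probe set of highest mean was used, and the named genes are all members at or above the 60th percentile or 1.5-fold from the control with either hairpin, with the others by class. Companion genes were named, up to 4 per list and only among those that reached the 40th percentile, by the smaller of the hairpins' differences, where both had 1 sign. Members and lists were chosen with earlier results of these data known. CDX2 and the low members given by array are examples chosen after their values were seen.

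The test was two-sided in limma 3.58.1 under R 4.3.3 (lmFit, then eBayes). Its p-values were adjusted by Benjamini-Hochberg across the 19775 genes. Each gene has 1 residual degree of freedom (3.93 after moderation), and the fit was tested on simulated data. An exact permutation of 3 arrays cannot go below p = 0.333. Alternatives were other probe set summaries, scalings, filters, thresholds and eBayes priors.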

Additional observations from a re-analysis of the deposited data

Results flagged for a closer look

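ANXA10 lay at least 2-fold above the control with hairpin 2 and at least 2-fold below it with hairpin 5, a difference of 2.95 between the hairpins on the log2 scale. With 1 array per hairpin this difference was not tested.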

How the results depend on the processing

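No paired analysis was possible because the labels give the arrays no shared replicate numbers. The count of 0 members passing limma was the same under all 10 alternatives run, among them an intensity trend, a robust prior, an adjusted p of 0.1 and every probe set. Leaving out a hairpin leaves 1 array against 1 and no test, and the mean difference of ANXA10 then ran from −1.22 to 1.73 and that of GATA6 from −0.036 to 1.11. With hairpin 2 the count of members 2-fold higher was 3, and 2 when probe sets were averaged by gene. At 1.5-fold, 1 member was higher and 3 lower with hairpin 5 and 6 were apart between hairpins. Among the 7 members above the 60th percentile the medians were 0.14 (hairpin 2) and −0.30 (hairpin 5). Of the counts and medians under these alternatives, 52 stayed within 1.5 times, or within the spread between hairpins, and 5 did not. The limma counts are among the 52. As UHRF1 itself did not pass in the main fit, their staying alike says little about the members. Averaging the probe sets turned the sign of 4 of 20 members with several of them for hairpin 2 and of 5 for hairpin 5. The mean difference over both hairpins turned in no other member given by array under the rule. SPDEF has no value without probe sets ending in _x_at. Readings near background and 1 array per construct limit all of these values.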
